A study of Mus musculus with 2 samples.

Results

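The cells described here are the Tbx1-positive, Epcam-low cells of the mouse second heart field at embryonic day (E) 9.5. They were chosen by 2 measured values: at least 1 Tbx1 UMI (unique molecular identifier, 1 counted RNA molecule) and an Epcam count of 0 or 1, Epcam being an epithelial adhesion gene. Of the 533 cells in the E9.5 sample 101 met both conditions: 10 of 54 anterior, 32 of 61 middle and 59 of 418 posterior cells. The comparison cells are the 314 Epcam-low cells of the same sample without a Tbx1 UMI (10 anterior, 8 middle, 296 posterior), called Tbx1-zero cells below. The tissue came from wild-type mice, with no treatment named, and was minced and dissociated with trypsin before droplet capture on the 10x Chromium. Barcode suffixes give the anterior, middle or posterior location of each cell, called a piece below. The submitters describe all cells as Osr1-positive, and every deposited cell held at least 1 Osr1 UMI; how the cells were picked and how many embryos were pooled are not given in the sources used here. A second sample from wild-type embryos at E10.5 (967 cells) held 74 cells that met the same rule.

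Tbx1 encodes a T-box transcription factor and is the main heart gene of DiGeorge syndrome, in which the outflow tract and the pharyngeal arch arteries form abnormally. It is active in pharyngeal mesoderm and pharyngeal endoderm, and in the mesoderm it keeps progenitors dividing and undifferentiated before they join the outflow tract, the right ventricle or the muscles of the head. Its mesodermal programme is tied to FGF ligands, to Eya1, to non-canonical Wnt ligands and to the timing of retinoic acid and BMP signals.

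There was 1 sample per stage, and neither cells nor positions are replicates, so no test between groups of cells was possible. Levels are CPM, UMIs per 1000000 UMIs, of the counts summed over the cells of a group and position. Folds are log2 ratios of CPM with 10 CPM added, which understates the difference of low genes. Intervals are 95% exact intervals that cover counting error only. The Tbx1-positive cells held a median of 28230 UMIs (5836 to 71439) and the Tbx1-zero cells 30817.5 (964 to 105157). By piece the medians were 23114, 25392.5 and 31190 UMIs in the Tbx1-positive and 17667.5, 14701 and 31097 in the Tbx1-zero cells from anterior to posterior, so depth was close at the posterior and lower in the Tbx1-zero cells elsewhere. No barcode was shared between the 3 E9.5 positions or between the stages. Scrublet, a doublet caller, marked 31 of the 54 anterior cells (57.4%), 2 of 61 middle cells (3.28%) and 5 of 418 posterior cells (1.20%); 8 of the 101 Tbx1-positive cells were among them, 7 of these anterior.

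Tbx1 was detected most often in the middle piece. Of the Epcam-low cells, 80% were Tbx1-positive at the middle (32 of 40, interval 64.4 to 90.9%), 50% at the anterior (10 of 20, 27.2 to 72.8%) and 16.6% at the posterior (59 of 355, 12.9 to 20.9%). The interval of the posterior share did not overlap either of the others, while those of the anterior and middle shares overlapped. After each cell was thinned to 10000 UMIs and chosen again by the same rule, the shares were 47.8% (anterior), 61.1% (middle) and 8.29% (posterior), in the same order. Over all 533 cells the share was 18.9% (15.7 to 22.5%), and 12.4% in the 500 thinned cells.

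Most posterior members rested on 1 Tbx1 molecule. Tbx1 stood at exactly 1 UMI in 1 of 10 anterior, 11 of 32 middle and 35 of 59 posterior members, with medians of 2.5, 2 and 1 UMIs and a highest cell of 20, 9 and 7 UMIs. The summed Tbx1 level of the members was 179 CPM at the anterior, 128 CPM at the middle and 58.8 CPM at the posterior. These values describe the rule itself. As a background for single UMIs, posterior Epcam-low cells in which cardiomyocyte genes held at least 0.5% of the UMIs, a cell type that should lack Tbx1, had a Tbx1 UMI in 3 of 31 cells (9.68%, 2.04 to 25.8%, median depth 32916 UMIs), against 56 of the 324 other posterior Epcam-low cells (17.3%, 13.3 to 21.8%, median depth 30977.5 UMIs). With 2 or more Tbx1 UMIs the counts were 0 of 31, which, taken as 3 cells of the total, allows up to 9.68% of cells with that many UMIs, and 24 of 324 (7.41%). So the posterior cells with 1 Tbx1 UMI cannot be told from background by that UMI alone, and values are given below for 1 and for 2 or more UMIs.

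**Figure D1:**
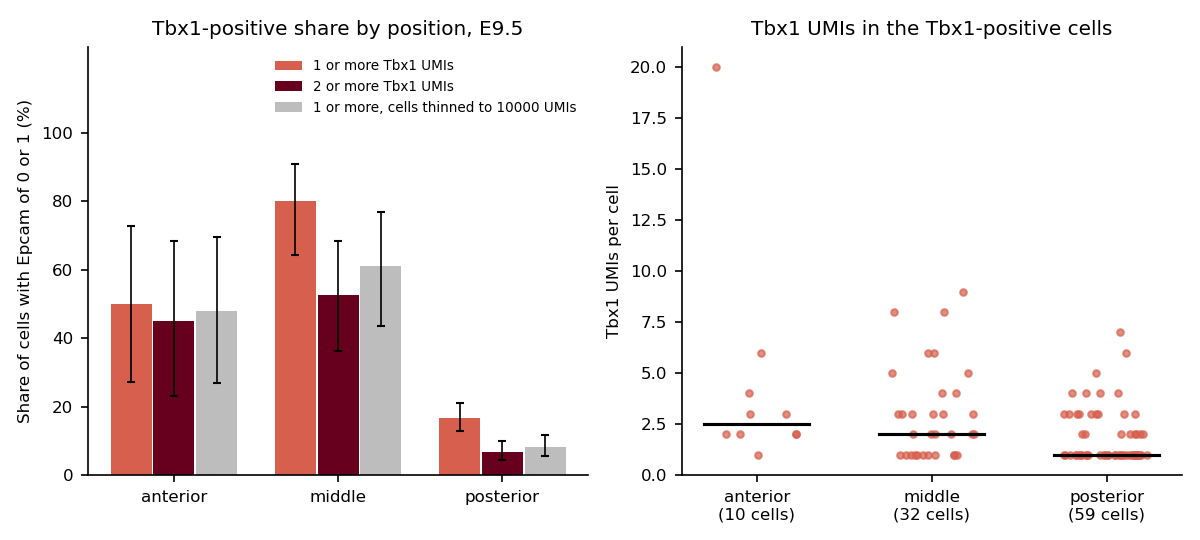
Left, share of Epcam-low cells (%) that held 1 or more Tbx1 UMIs, 2 or more, or 1 or more after thinning to 10000 UMIs, at each E9.5 position, with 95% exact intervals for counting error. Right, Tbx1 UMIs of each of the 101 Tbx1-positive cells, with the median as a line at 2.5, 2 and 1 UMIs; the highest cell, with 20 UMIs, was anterior.

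Cells just inside and just outside the rule differed in epithelial genes. The summed level of 13 epithelial and endodermal markers was 263 CPM in the 94 members with Epcam at 0, 143 CPM in the 7 members with Epcam at 1, 588 CPM in the 2 excluded Tbx1-positive cells with 2 or 3 Epcam UMIs and 1827 CPM in the 29 with 4 or more. In all members Esrp1, Shh, Foxe1 and Nkx2-1 stood at 0. Only 2 Tbx1-positive cells lay between clearly low and clearly high Epcam.

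The name pharyngeal mesoderm was checked against its markers. Of 9 second heart field mesoderm markers, the summed level in the members was 676 CPM at the anterior, 244 CPM at the middle and 232 CPM at the posterior, against 537, 154 and 264 CPM in Tbx1-zero cells. At least 3 of the 9 markers were detected in 9 of 10 anterior, 21 of 32 middle and 30 of 59 posterior members; in Tbx1-zero cells the counts were 6 of 10, 1 of 8 and 148 of 296. The markers were thus present in most anterior members, but also in most anterior Tbx1-zero cells, and at the posterior their shares were close in both groups. The anterior members also held 1512 CPM of cardiomyocyte markers, against 2143 CPM in the anterior Tbx1-zero cells. These sums leaned on few cells: the median cell held 166 and 81.0 CPM, and the highest 8597 and 12129 CPM. Foregut and lung mesenchyme markers (Barx1, Wnt2, Foxf1, Tbx4, Nkx6-1) summed to 71.6, 276 and 421 CPM in the members from anterior to posterior. Mesothelial or epicardial markers, 2 of which (Tcf21 and Aldh1a2) are also genes of second heart field mesoderm, summed to 295.5 CPM over all members, with at least 3 of 7 in 32 of 101 cells; the second heart field markers summed to 273.5 CPM. Leukocyte markers stood at 0, neural crest markers at 25.8 CPM with Foxd3, Tfap2b, Dlx2 and Dlx5 at 0, and endothelial markers at 23.7 CPM. The cells are therefore called by their rule, Tbx1-positive cells, below.

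Anterior members held more of several second heart field and head muscle progenitor genes than the other members. Isl1, the LIM homeobox gene of second heart field progenitors, stood at 235 CPM in the anterior members, 44.0 in the middle and 34.6 in the posterior, and had a UMI in 9 of 10, 17 of 32 and 24 of 59 of them. Tcf21, a basic helix-loop-helix gene of branchiomeric muscle and epicardial precursors, stood at 270, 88.0 and 62.4 CPM; 9 of the 10 anterior members held it, each of them also holding Isl1, with a median of 4 UMIs and a highest cell of 28. Ebf1, an early B-cell factor family gene of cardiopharyngeal progenitors, stood at 171, 37.3 and 28.3 CPM. After thinning, Isl1 was present in 90%, 34.5% and 22.4% of the members and Tcf21 in 80%, 55.2% and 44.8%. All 3 genes were thus highest in the anterior members. In Tbx1-zero cells Isl1 stood at 191 CPM at the anterior (7 of 10 cells), 81.1 at the middle and 91.7 at the posterior. Ebf1 stood at 63.8, 8.11 and 9.62 CPM in these cells. Both were thus highest at the anterior in either group, so their order was largely shared by the piece. Tcf21 stood at 37.2, 32.4 and 42.6 CPM in Tbx1-zero cells and did not have that order.

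The FGF ligands Fgf8 and Fgf10 had the same order, and so did the FGF feedback genes Spry2 and Il17rd. The receptor Fgfr2 had the opposite order, at 0, 5.34 and 27.8 CPM from anterior to posterior. Fgf8, the FGF ligand of the pharyngeal region, stood at 87.5, 46.7 and 5.77 CPM in the anterior, middle and posterior members, with a UMI in 6 of 10, 12 of 32 and 8 of 59. Fgf10, another ligand of second heart field mesoderm, stood at 47.7, 14.7 and 3.15 CPM. In Tbx1-zero cells Fgf8 had the same order, at 47.9, 16.2 and 1.25 CPM, so its order was shared by the piece. Fgf10 had a UMI in 3 of 10, 1 of 8 and 44 of 296 Tbx1-zero cells. The FGF feedback gene Spry2 stood at 143, 21.3 and 13.1 CPM, but 1 anterior cell held 26 of its 36 anterior UMIs. Lef1, a nuclear factor of canonical Wnt signalling, stood at 131 CPM in anterior members and at 10.7 and 12.1 CPM in the others.

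Posterior members instead carried genes of the venous pole and of foregut mesenchyme. Aldh1a2, the retinoic acid-producing dehydrogenase, stood at 204 CPM in the posterior members (51 of 59 cells) and 125.4 CPM in the middle (23 of 32), with 0 UMIs in the anterior, where 3 UMIs would have been 11.9 CPM. Wnt2, a Wnt ligand of the posterior second heart field and lung mesenchyme, stood at 150 CPM (41 of 59 cells) and 103 CPM (17 of 32), and Tbx5, the T-box gene of the venous pole and the atria, at 66.6 CPM (34 of 59 cells) and 17.3 CPM (8 of 32). Both were at 0 UMIs in the 10 anterior members. Taken as 3 cells of the total, this allows up to 30% of cells with a UMI, and does not limit cells that express the gene. Aldh1a2, Wnt2 and Tbx5 also had 0 UMIs in the 10 anterior Tbx1-zero cells, and stood at 150, 184 and 55.9 CPM in the posterior ones. Their order was thus shared by the piece.

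The nuclear receptor gene Nr2f1 had the same order, at 0, 113 and 168 CPM. In 24 of the 59 posterior members Tbx5, Wnt2 and Aldh1a2 were all present beside Tbx1 (40.7%), as in 94 of 296 posterior Tbx1-zero cells (31.8%); after thinning the counts were 10 of 58 and 31 of 278. Wnt2 alone was present in 69.5% against 62.5% of posterior cells, and in 46.6% against 51.8% after thinning. No order between the groups is read from these shares. Of the 5952 genes with at least 50 UMIs in the members, 21 (0.353%) were at least 4-fold higher at the anterior than at the posterior and 25 (0.42%) at least 4-fold lower. The 10 anterior cells and the 57.4% of that piece marked by Scrublet lie behind each of these anterior values, and their part in them was not tested.

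**Figure D2:**
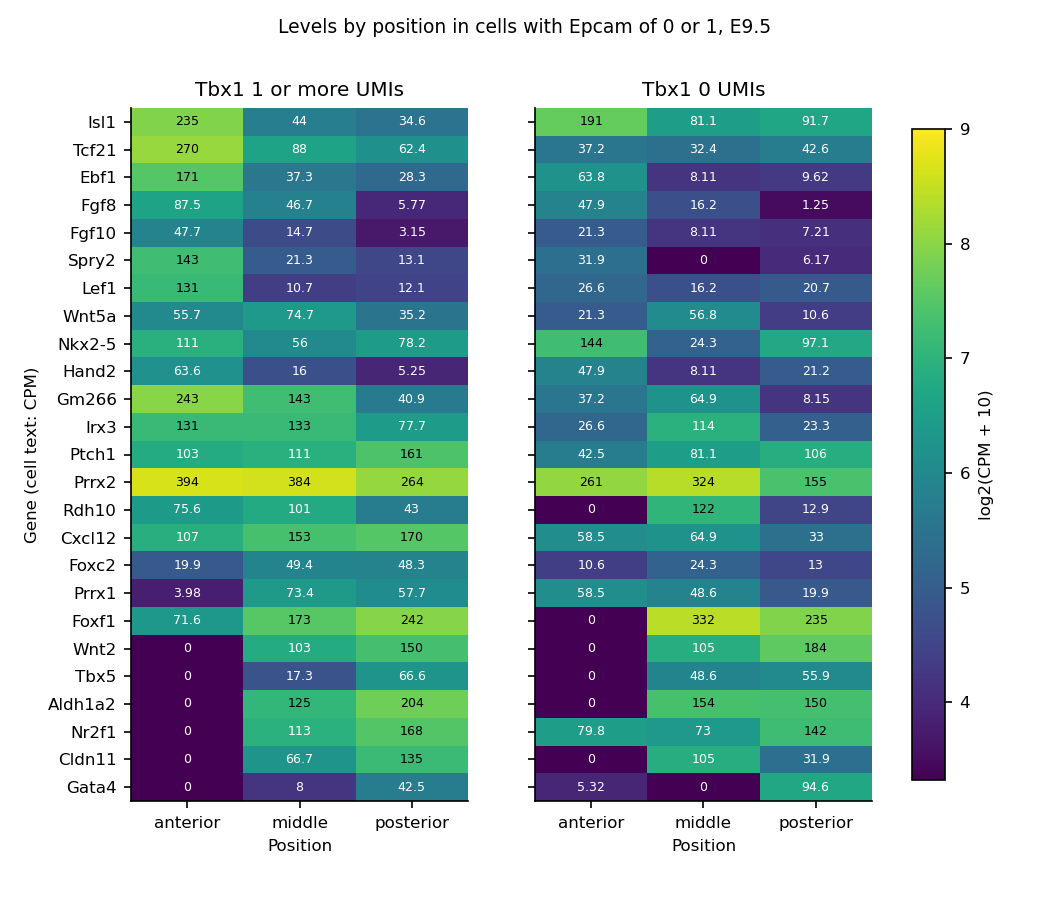
CPM of 25 genes (printed in each field, coloured as log2 of CPM with 10 added) at the 3 positions, in Tbx1-positive cells on the left and Tbx1-zero cells on the right. In the Tbx1-positive cells Isl1 reads 235 CPM at the anterior and 34.6 at the posterior, while Aldh1a2 reads 0 and 204.

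Against Tbx1-zero cells, few genes stood apart at both ends of the field. The contrast was read within the anterior (10 against 10 cells) and posterior (59 against 296) pieces, since the middle held only 8 Tbx1-zero cells. A gene was counted when its summed UMIs reached 50 and it was at least 2-fold higher, or lower, at both positions. Of 9769 genes, 8 (0.0819%) were higher and 19 (0.194%) lower. At the anterior alone 688 genes (7.04%) were at least 2-fold higher and 673 (6.89%) lower. The anterior Tbx1-zero cells were also mixed: their epithelial markers summed to 968 CPM against 143 CPM in the anterior members, and 6 of the 10 held at least 3 such markers, although their Epcam count was 0 or 1.

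The 8 higher genes were Rdh10, Gm266, Irx3, Etv2, Col26a1, Smoc1, Cdh11 and Wnt5a. Rdh10, which makes the retinal from which retinoic acid is formed (chr1:16105774-16133734, GRCm38, plus strand), had 19 UMIs in 5 of 10 anterior members (75.6 CPM) and 0 UMIs in the anterior Tbx1-zero cells, at least 4.74-fold higher when the floor of 3 UMIs is set there. At the posterior it stood at 43.0 against 12.9 CPM, a ratio of 3.35 (2.50 to 4.46). At the middle it was at 101 against 122 CPM and did not differ beyond counting error, with a ratio of 0.834 (0.475 to 1.56).

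The Iroquois homeobox gene Irx3 (chr8:91798525-91802067, minus strand) stood at 131, 133 and 77.7 CPM in the anterior, middle and posterior members and at 26.6, 114 and 23.3 CPM in Tbx1-zero cells. Its ratio was 4.94 (1.92 to 16.2) at the anterior and 3.33 (2.69 to 4.12) at the posterior, and at the middle it was 1.18 (0.669 to 2.23), where both groups were high. Gm266, a predicted gene with no established role (chr12:111484609-111485823, minus strand), stood at 243, 143 and 40.9 CPM against 37.2, 64.9 and 8.15 CPM. Among the 8 higher genes Gm266 and Smoc1 were also at least 2-fold higher at the middle. For Smoc1 this rests on 20 UMIs in 32 members against 1 UMI in 8 Tbx1-zero cells, too few to read.

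Smoc1, a secreted modulator of BMP signalling, stood at 23.9, 26.7 and 29.4 CPM in the members and at 5.32, 8.11 and 5.02 CPM in Tbx1-zero cells, with a posterior ratio of 5.86 (3.91 to 8.80). Wnt5a, the non-canonical Wnt ligand that second heart field cells need to enter the outflow tract, stood at 55.7, 74.7 and 35.2 CPM against 21.3, 56.8 and 10.6 CPM. The posterior ratio of Wnt5a was 3.33 (2.41 to 4.58), and at the anterior the interval of 0.822 to 10.9 included 1. The values of Smoc1 at the anterior rest on 6 UMIs against 1.

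Col26a1, a collagen gene, stood at 91.5, 111 and 78.7 CPM in the members against 21.3, 64.9 and 32.9 CPM, and Cdh11, the cadherin of mesenchymal cells, at 67.6, 93.4 and 78.2 CPM against 21.3, 89.2 and 34.0 CPM. Etv2, an ETS factor of endothelial and blood progenitors, was counted as higher, but 1 posterior cell held 42 of its 54 posterior UMIs and only 5 of 59 posterior members had any. Etv2 is therefore a property of single cells here, while the other 7 genes were spread over 5 to 9 of the 10 anterior members. The anterior part of these calls leaned on cells that Scrublet marked: with them left out, 3 anterior members and 2 anterior Tbx1-zero cells remained, and 3 of the 8 genes, Gm266, Smoc1 and Cdh11, were still past 2-fold at both positions. Without cardiomyocyte-marker cells 7 of the 8 were, all but Cdh11.

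**Figure D3:**
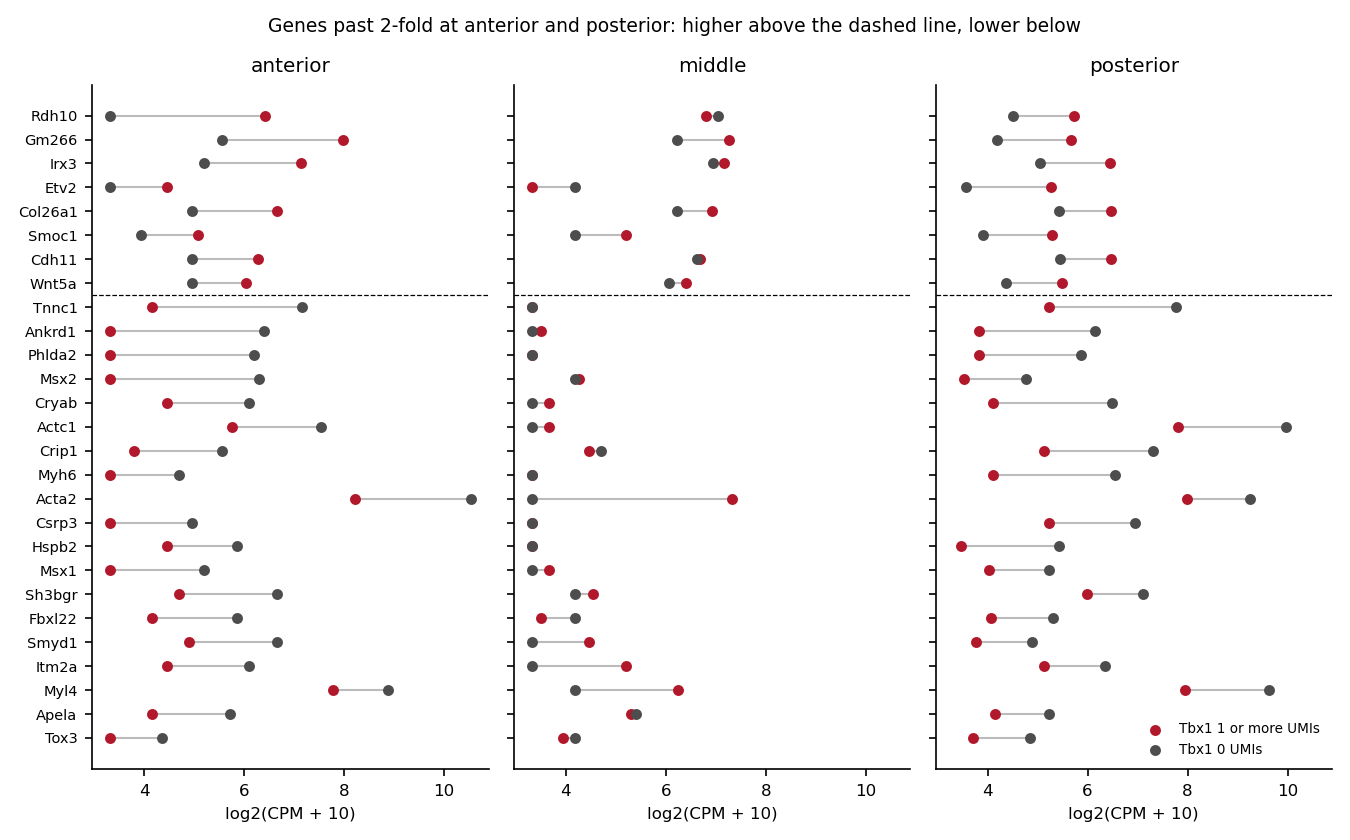
Levels, as log2 of CPM with 10 added, of the 8 genes counted as higher (above the dashed line) and the 19 counted as lower (below it) in Tbx1-positive cells (red) and Tbx1-zero cells (grey) at the 3 positions. At the middle, with 8 Tbx1-zero cells, several lower genes stand on the opposite side, among them Acta2 at 149 against 0 CPM.

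Of the 19 lower genes 5 belong to the sarcomere list and 1, Acta2, to the smooth muscle list. Cardiac actin Actc1 stood at 43.8 CPM in the anterior and 215 CPM in the posterior members against 175 and 992 CPM in Tbx1-zero cells, and cardiac troponin C Tnnc1 at 7.96 and 27.3 against 133 and 207 CPM. Of the 14 measured sarcomere genes 5 were counted as lower (Tnnc1, Actc1, Myh6, Csrp3 and Myl4), and at the posterior all 14 lay below 0 on the log2 scale, 10 of them past 2-fold, against 54 of 12376 measured genes (0.436%). The list's median log2 fold was −1.10, against −0.01 over 12376 measured genes. At the posterior it was −1.71, and −0.07 without cardiomyocyte-marker cells. The anterior side of the 5 sarcomere calls leaned on few UMIs. Single Tbx1-zero cells held 29 of the 33 Actc1 UMIs and 23 of the 25 Tnnc1 UMIs there. Myh6 and Csrp3 had 3 and 4 anterior UMIs in Tbx1-zero cells and 0 in the members. With each gene's top cell left out, only Tnnc1 of the 5 stayed past 2-fold at both positions.

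Cardiomyocyte markers were lower in the members as well. The 7 cardiomyocyte markers summed to 884 CPM in the members and 3140 CPM in Tbx1-zero cells, single members ranged from 0 to 11298 CPM and single Tbx1-zero cells from 0 to 49399 CPM, and 4 of 101 members against 29 of 314 Tbx1-zero cells were cardiomyocyte-marker cells. With those cells left out of both groups and the same positions kept, 8 genes were lower, 6 of them from the 19, and Actc1 and Myh6 turned to folds of 0.46 and 0.15. Acta2, smooth muscle actin, had been counted as lower (286 and 244 against 1468 and 599 CPM), and 1 anterior Tbx1-zero cell held 76.1% of that group's Acta2 UMIs. In the anterior members 1 cell likewise held 84.7% of the Acta2 UMIs. So 13 of the 19 genes passed only with the cardiomyocyte-marker cells included. Those cells were chosen by the 7 markers Tnnt2, Myl7, Actc1, Tnni1, Ttn, Myh6 and Myh7, all of which are in the sarcomere list. For Actc1, Myh6 and that list, the loss of the difference thus follows in part from the choice of cells. The part of cardiomyocytes in the lower genes was not tested.

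The 6 lower genes that stayed past 2-fold without cardiomyocyte-marker cells were Msx1, Msx2, Phlda2, Itm2a, Apela and Tox3, of which Itm2a and Tox3 did so in only 7 and 9 of 13 alternatives. Msx1 and Msx2, homeobox targets of BMP signalling, had 0 UMIs in the 10 anterior members and stood at 6.30 and 1.57 CPM in the posterior members, against 26.6 and 69.1 CPM at the anterior and 27.6 and 17.1 CPM at the posterior in Tbx1-zero cells. Phlda2, an imprinted growth-restraining gene, also had 0 UMIs in the anterior members (63.8 CPM in Tbx1-zero cells, at least 5.35-fold lower, with 9 of the 12 UMIs in 1 cell) and stood at 4.20 against 48.2 CPM at the posterior, a ratio of 0.0871 (0.0374 to 0.173). Without cells with epithelial UMIs Phlda2 was no longer past 2-fold at both positions. The posterior ratios of Msx1 and Msx2 were 0.228 (0.116 to 0.405) and 0.0918 (0.0187 to 0.273). At the middle Phlda2 had 0 UMIs in both groups, and Msx1 and Msx2 stood at 2.67 and 9.34 CPM in the members against 0 and 8.11 CPM, so the middle piece adds nothing on these genes.

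The posterior piece alone gave the deepest comparison. Of 7958 genes with at least 100 UMIs there, 17 (0.214%) were at least 2-fold higher and 54 (0.679%) lower in the 59 members. The 10 highest were Cxcl12, Cpa1, Cldn11, Gm266, Irx3, Smoc1, Foxc2, Meox1, Rdh10 and Prrx1. The 10 lowest were Hspb1, Tnnc1, Myh6, Cryab, Ankrd1, Crip1, Actc1, Barx1, Phlda2 and Tnni3, of which only Barx1 and Phlda2 stayed past 2-fold without cardiomyocyte-marker cells.

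Cxcl12, the chemokine that binds Cxcr4 (chr6:117168535-117181367, plus strand), led the list. It stood at 170 CPM in the posterior members against 33.0 CPM, a ratio of 5.15 (4.39 to 6.03), and was present in 45 of 59 members against 107 of 296 Tbx1-zero cells, with medians of 2 and 0 UMIs and highest cells of 38 and 17 UMIs. Thinned cells held it in 60.3% of members and 20.1% of Tbx1-zero cells. At the anterior and the middle it was at 107 against 58.5 CPM and 153 against 64.9 CPM. Members were higher at all 3 positions, though the anterior interval of 0.882 to 4.10 included 1.

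Cldn11, a tight junction claudin, stood at 135 against 31.9 CPM at the posterior, with 33 of 59 members against 60 of 296 Tbx1-zero cells. At the middle it was at 66.7 against 105.4 CPM, and it had 0 UMIs in either anterior group. In the middle Tbx1-zero cells 1 cell held 9 of its 13 UMIs. It was present in 15 of 32 middle members against 2 of 8 Tbx1-zero cells. So the claudin was higher in members at the posterior, and the middle does not settle it. Cpa1, a carboxypeptidase gene best known from the pancreas, stood at 63.5 against 8.05 CPM at the posterior, in 23 of 59 members against 47 of 296 Tbx1-zero cells. The size of the Cpa1 value leaned on 1 cell, which held 51 of its 121 UMIs. Cpa1 stayed past 2-fold at the posterior with each gene's top cell left out.

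The forkhead gene Foxc2, active in pharyngeal and paraxial mesoderm, stood at 48.3 against 13.0 CPM at the posterior, a ratio of 3.72 (2.81 to 4.92), with 30 of 59 members against 74 of 296 Tbx1-zero cells (29.3% and 13.3% after thinning). The related Foxf2, a Hedgehog-responsive forkhead gene, stood at 24.7 against 6.27 CPM, a ratio of 3.93 (2.63 to 5.86). Meox1, a homeobox gene of somites, stood at 39.9 against 9.83 CPM, and the mesenchymal homeobox gene Prrx1 at 57.7 against 19.9 CPM. The 6 paraxial or somite markers, Meox1 among them, summed to 61.4 CPM in the posterior members and 14.5 CPM in the Tbx1-zero cells, with Pax1 and Tbx6 at 0 in the members. Of the 59 members 2 held at least 3 of these markers, and the part of paraxial cells in these results was not tested.

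Barx1, a homeobox gene of stomach mesenchyme (chr13:48662998-48666507, plus strand), showed the opposite. It was present in 8 of 59 posterior members and in 115 of 296 Tbx1-zero cells (8.62% and 29.9% after thinning), at 16.8 against 109 CPM, a ratio of 0.154 (0.105 to 0.218). Read from the other side, a Tbx1 UMI was found in 4 of 69 posterior cells with 4 or more Barx1 UMIs (5.80%, median depth 31981 UMIs) and in 51 of 232 without Barx1 (21.98%, median depth 31092.5 UMIs). The interval of the first share, 1.60 to 14.2%, overlaps that of cardiomyocyte-marker cells.

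Posterior levels were then set out by the number of Tbx1 UMIs, which uses the counts of the rule and is a description. The 355 posterior Epcam-low cells were divided into 296 with 0, 35 with 1 and 24 with 2 or more Tbx1 UMIs, with median depths of 31097, 33577 and 29722 UMIs. Cxcl12 stood at 33.0, 83.4 and 317 CPM in these 3 groups and was present in 36.1%, 62.9% and 95.8% of their cells. Cldn11 stood at 31.9, 91.8 and 209 CPM. Eya1, a transcriptional coactivator with phosphatase activity in pharyngeal mesoderm, stood at 3.76, 9.18 and 18.4 CPM and had a UMI in 8.78%, 20% and 41.7% of cells. At the posterior, cells with more Tbx1 UMIs thus held more of all 3. At the middle (8, 11 and 21 cells) this was not so: Cxcl12 stood at 64.9, 155 and 153 CPM, Cldn11 at 105.4, 36.8 and 81.2 CPM and Eya1 at 8.11, 16.3 and 15.8 CPM.

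Other genes had the same order at the posterior. Foxc2 stood at 13.0, 35.0 and 70.7 CPM, Prrx1 at 19.9, 35.0 and 96.2 CPM and Irx3 at 23.3, 66.7 and 96.2 CPM. Rdh10 stood at 12.9, 32.5 and 60.8 CPM, and Wnt5a at 10.6, 24.2 and 53.7 CPM. Ebf1 stood at 9.62, 19.2 and 43.8 CPM. All but Ebf1 were named for being higher in cells with Tbx1, so what the split adds for them is the step from 1 to 2 or more UMIs. At the middle Rdh10 stood at 122, 81.7 and 111 CPM and so did not follow. Prrx1, at 48.6, 85.8 and 67.3 CPM, and Wnt5a, at 56.8, 77.6 and 73.3 CPM, did not rise there from 1 to 2 or more UMIs. Foxc2 (24.3, 36.8 and 55.5 CPM), Irx3 (114, 114 and 143 CPM) and Ebf1 (8.11, 24.5 and 43.6 CPM) did.

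At the posterior Gata4, Isl1, Hand2 and Hoxa5, named after their values were seen, had the opposite order. Gata4, a zinc finger factor of heart and gut mesoderm, stood at 94.6, 55.9 and 19.8 CPM and had a UMI in 73.0%, 45.7% and 20.8% of cells. Isl1 stood at 91.7, 44.2 and 18.4 CPM, and Hand2, a helix-loop-helix factor of heart progenitors, at 21.2, 7.51 and 1.41 CPM, the last being 1 UMI. Hoxa5, which patterns lung mesenchyme, stood at 69.0, 25.9 and 17.0 CPM. At the middle these 4 genes did not follow it: Gata4 stood at 0, 16.3 and 3.96 CPM, Isl1 at 81.1, 28.6 and 51.5 CPM, Hand2 at 8.11, 12.3 and 17.8 CPM and Hoxa5 at 8.11, 12.3 and 13.9 CPM. Tbx5 had no steady order at the posterior either, at 55.9, 84.2 and 36.8 CPM.

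Wnt2 did not follow a steady order: it stood at 184, 217 and 35.4 CPM at the posterior and at 105.4, 192 and 59.4 CPM at the middle (8, 11 and 21 cells). In both pieces it was lowest in cells with 2 or more Tbx1 UMIs and highest in cells with 1. Foxf1, a Hedgehog-responsive forkhead gene of gut mesenchyme, hardly moved, at 235, 252 and 226 CPM, and Aldh1a2 stood at 150, 199 and 211 CPM. Without cardiomyocyte-marker cells (268, 32 and 24 cells left) Gata4 stood at 91.9, 44.9 and 19.8 CPM, Isl1 at 98.9, 46.7 and 18.4 CPM and Cxcl12 at 35.8, 91.6 and 317 CPM, in the same order.

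**Figure D4:**
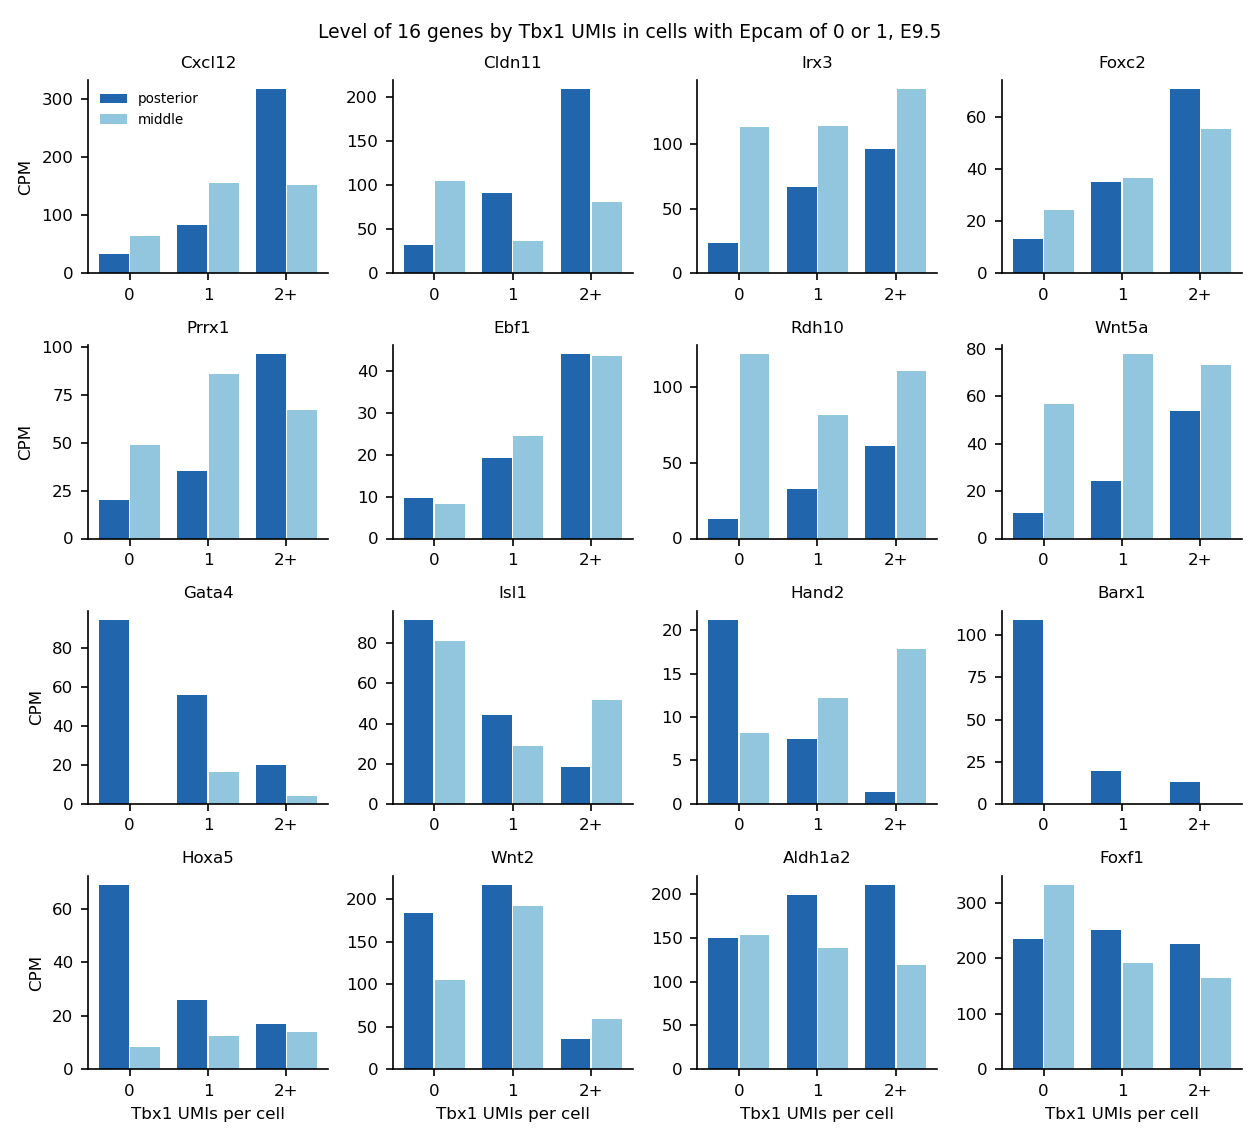
CPM of 16 genes in Epcam-low cells with 0, 1 and 2 or more Tbx1 UMIs at the posterior (dark, 296, 35 and 24 cells) and the middle (light, 8, 11 and 21 cells), each axis starting at 0. At the posterior Cxcl12 reads 33.0, 83.4 and 317 CPM and Gata4 94.6, 55.9 and 19.8 CPM.

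Gene lists of known pathways were then read as a whole, by the median log2 fold of their measured genes (10 or more UMIs) over the anterior and posterior. Over all 12376 measured genes the median was −0.01, with 6123 above 0. Among pharyngeal and cardiopharyngeal mesoderm genes, 20 of 25 lay above 0 (median 0.46) and 1, Irx3, was counted as higher. The median was 0.56 at the anterior and 0.26 at the posterior, where 17 of 25 lay above 0. At the posterior 3 of these genes were at least 2-fold higher and 2 at least 2-fold lower. The lower ones were Isl1, at 34.6 against 91.7 CPM, and Hand2, with 10 UMIs in 59 members against 203 in 296 Tbx1-zero cells. Eya1 stood at 19.9, 16.01 and 12.6 CPM in the members against 5.32, 8.11 and 3.76 CPM. It was higher in the members at all 3 positions, on few UMIs outside the posterior.

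The FGF list, with a median of 0.27, held 14 of 17 genes above 0, and 0 were counted as higher or lower. The median was 0.73 at the anterior and 0.16 at the posterior. The receptor Fgfr1 stood at 59.7, 64.0 and 61.4 CPM against 31.9, 40.5 and 53.8 CPM, and Il17rd, a membrane feedback inhibitor, at 51.7, 32.0 and 11.0 CPM against 10.6, 8.11 and 5.23 CPM. The Hedgehog list had 11 of 13 genes above 0 and a median of 0.48, with 0 genes counted. Its receptor and target Ptch1 stood at 103, 111 and 161 CPM against 42.5, 81.1 and 106 CPM, with a posterior ratio of 1.51 (1.33 to 1.72).

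BMP genes leaned lower, with 15 of 16 below 0, a median of −0.36, and Msx1 and Msx2 counted as lower. Bambi, a decoy receptor induced by BMP, stood at 115, 104 and 88.7 CPM in the members against 282, 105.4 and 162 CPM, and Id1, a direct BMP target, at 545, 183 and 124.9 CPM against 984, 97.3 and 177 CPM. At the middle the BMP median was 0.08, so the lower values belonged to the anterior and posterior pieces. Smad7, an inhibitor of these signals, stood at 13.6 against 30.9 CPM at the posterior.

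For retinoic acid the list's median was −0.09, with 5 of 15 above 0, and Rdh10 was the 1 gene counted. Crabp1, a retinoic acid binding protein gene, stood at 374 CPM in the anterior members and 2052 CPM in the anterior Tbx1-zero cells, where 1 cell held 298 of the 386 UMIs, and at 31.0 against 37.6 CPM at the posterior. In the Wnt list 10 of 20 genes lay above 0 (median 0.02) and Wnt5a was counted, and in the Notch list 7 of 9 (median 0.21) with 0 counted. At the posterior the medians of these 3 lists were 0.05, −0.23 and −0.06.

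Of 18 measured genes reported downstream of Tbx1, 10 lay above 0 (median 0.23) and 1, Wnt5a, was counted as higher. In the venous pole list the median was −0.07 with 0 counted, and 7 of 18 genes were above 0 at the posterior. Of 14 measured Hox genes 3 were at least 2-fold lower in the posterior members, where 0.436% of measured genes were: Hoxa5 at 22.6 against 69.0 CPM, Hoxc4 at 9.44 against 35.6 CPM and Hoxc5 at 0.525 (1 UMI) against 11.3 CPM. Hoxb1, of the first paralogue group, stood at 67.7 against 71.2 CPM there.

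Branchiomeric muscle genes (5 measured) had a median of 1.13 at the anterior and −0.25 at the posterior. At the anterior Tcf21 stood at 270 against 37.2 CPM, a ratio of 7.27 (3.34 to 18.8). Msc and Lhx2, muscle progenitor factors, had 5 and 3 UMIs in the anterior members and 0 in the Tbx1-zero cells, too few to read. The 5 measured T-box genes other than Tbx1 had a median of −0.43. Tbx20, a cardiac T-box gene, stood at 0 against 21.3 CPM at the anterior and 12.1 against 19.96 CPM at the posterior, and Tbx5 at 66.6 against 55.9 CPM at the posterior.

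Of the mesenchymal genes 11 of 17 lay above 0 (median 0.41) and Cdh11 was counted, and of the matrix genes 12 of 21 (median 0.23) with 0 counted. Prrx2, a paired-type homeobox gene, stood at 394, 384 and 264 CPM against 261, 324 and 155 CPM. The foregut and lung mesenchyme list had a median of −0.02 and the outflow tract and guidance list 0.12, with 0 counted in each. Smooth muscle genes had a median of −0.76, with Acta2 counted as lower and all 7 below 0; at the posterior the median was −0.40, and 0.01 without cardiomyocyte-marker cells.

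Cell cycle lists had these values in the pieces. G2 and M phase genes had a median of 0.85 at the anterior (18 of 20 above 0) and −0.21 at the posterior (4 of 20), and S phase genes −0.60 (4 of 20) and 0.09 (15 of 20). Of all 12376 measured genes, 5419 lay above 0 at the anterior and 5913 at the posterior. The anterior values come from 10 against 10 cells, of which Scrublet marked 7 and 8, and the difference between the pieces was not tested. No gene of either list was counted. The lists of G1 regulators, glycolysis, mitochondrially encoded, developmental timing and immediate early genes had medians between −0.08 and 0.13, with 0 genes counted.

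**Figure D5:**
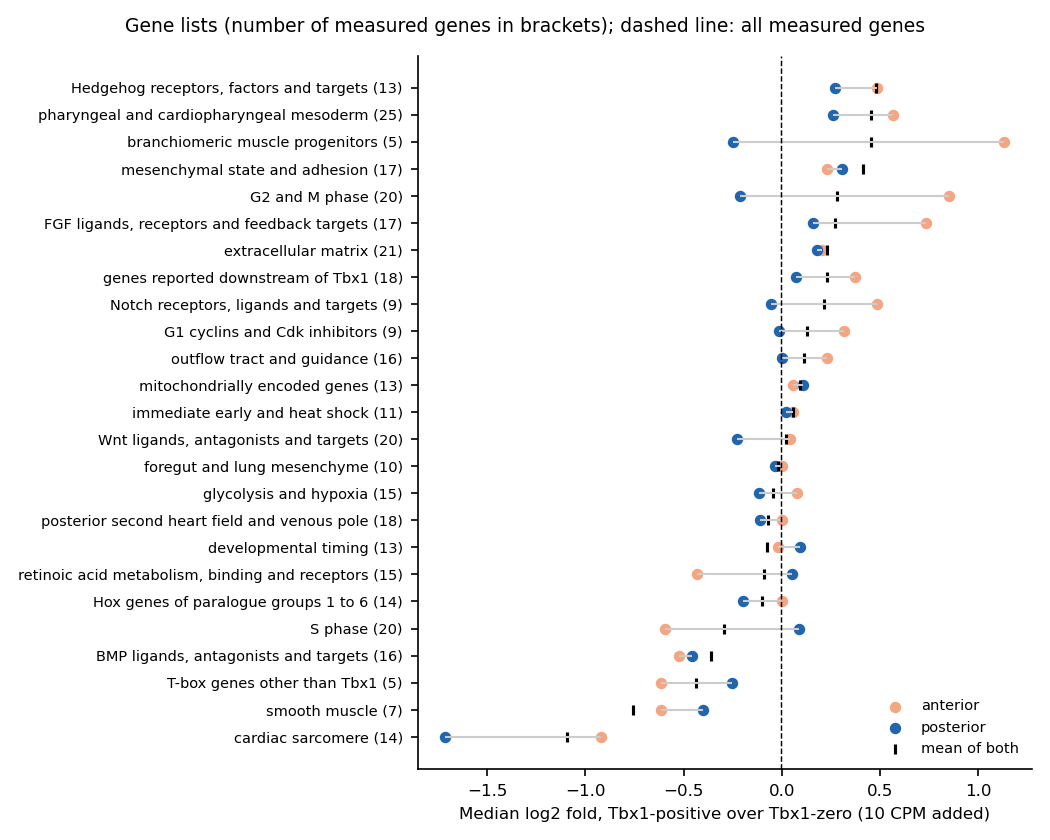
Median log2 fold of each gene list, Tbx1-positive over Tbx1-zero cells with 10 CPM added, at the anterior (orange), at the posterior (blue) and over the mean of both (black tick). The cardiac sarcomere list is lowest, at −1.10 over both, and the G2 and M phase list reads 0.85 at the anterior and −0.21 at the posterior.

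At E10.5 the rule found 11 anterior, 53 middle, 5 posterior and 5 outflow tract cells, with a median depth of 5610.5 UMIs against 28230 at E9.5. Tbx1-positive cells were 25.0% of Epcam-low cells at the anterior, 16.8% at the middle and 0.996% at the posterior (5 of 502). The contrast could be read at the anterior (11 against 33 cells) and the middle (53 against 262), where 11 of 7568 genes (0.145%) were at least 2-fold higher at both and 17 (0.225%) lower. Of the 8 genes higher at E9.5, 6 had at least 50 UMIs, 0 were counted again, and 2, Gm266 and Col26a1, were above 0 at both positions. Col26a1 stood at 121 against 49.7 CPM at the anterior and 113 against 59.0 CPM at the middle. Gm266 stood at 181 against 127 CPM at the anterior and 133 against 71.7 CPM at the middle.

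Msx2 and Barx1 were lower at E10.5 as well. Msx2 had 0 UMIs in the anterior and middle members against 16.6 and 30.2 CPM in Tbx1-zero cells, and Barx1 stood at 0 against 27.6 CPM and 3.24 against 26.1 CPM. The anterior Tbx1-zero values were 3 UMIs of Msx2 and 5 of Barx1. Both levels lay below the 45.3 CPM that 3 UMIs would be in the anterior members. So the lower values of these genes at E10.5 rest on the middle. Msx2 was the 1 gene of the 9 measurable E9.5-lower genes counted as lower again, and Barx1 had been past 2-fold at the E9.5 posterior but not at the anterior. Acta2 was counted in the opposite direction at E10.5, at 1434 against 216 CPM and 574 against 73.7 CPM. Isl1 had 0 UMIs in the 11 anterior members (3 UMIs would be 45.3 CPM) and stood at 48.6 against 81.8 CPM at the middle. Positions, depth and the cells captured differ between the stages, so the values are given side by side.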

How the data were processed

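Single-cell RNA was captured on the 10x Chromium and sequenced on a NextSeq, and reads were aligned to mm10, per the labels' protocols. Cell Ranger 3.0 and Seurat are named per the submitters' processing notes, and which annotation was used is not given in the sources used here. What the authors deposited was whole-number UMI counts, unnormalized, in 1 matrix per stage (17492 genes and 533 cells at E9.5; 17348 genes and 967 cells at E10.5), and the barcode suffix gives the position per the labels.

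The members, the 25 gene lists and the markers of 13 cell types were chosen with earlier results of these data known. Counts were summed per group and position and divided by their total (Python 3.11.15, numpy 2.4.6, pandas 2.3.3, scipy 1.17.1). A gene was counted at 50 or more UMIs and 2-fold (10 CPM added) in every position with 10 or more cells of both groups. Tbx1 and Epcam were left out of the counts. Ratio intervals are exact conditional Poisson intervals (Clopper-Pearson, 95%), and a fold against 0 UMIs is a bound at 3 UMIs per group and position. The text names the counted genes (at most 15 per direction), the 10 highest and 10 lowest at the posterior, and members of the lists and marker lists. Genes named across positions were chosen among those past 4-fold and the lists, after their values were seen. The fold script was tested on simulated data. Scrublet (scanpy 1.11.5, per position) marked doublets, which were kept. Thinning to 10000 UMIs left out 33 cells, 4 of them members. Coordinates are from GENCODE on GRCm38, the assembly of mm10; 98.7% of symbols matched 1 gene. Alternatives used TMM factors of edgeR 4.0.16 (R 4.3.3) and other rules for cells, and the closing section gives their effect. No count model was fitted, since each stage is 1 sample. Results for some genes of the lists are not reported here.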

Additional observations from a re-analysis of the deposited data

Results flagged for a closer look

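The 280 list genes with at least 50 UMIs were searched for folds of opposite direction past 2-fold at the E9.5 anterior and posterior. Myl3 and Prrx1 had such folds. Of the genes counted at E9.5, 6 higher and 9 lower ones had at least 50 UMIs at E10.5. Among these, Acta2 was counted in the opposite direction at E10.5. In each case the difference was not tested. Acta2, smooth muscle actin, had a mean log2 fold of −1.79 at E9.5 and 2.74 at E10.5. Myl3, a ventricular myosin light chain, had log2 folds of 1.62 at the E9.5 anterior (151 against 42.5 CPM) and −1.77 at the posterior (12.1 against 65.2 CPM). In the anterior members 1 cell held 36 of the 38 Myl3 UMIs. Prrx1, a mesenchymal homeobox gene, had −2.29 at the anterior (1 UMI against 11) and 1.18 at the posterior (110 UMIs against 190, in 59 against 296 cells). The anterior values come from 10 cells in each group.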

How the results depend on the processing

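The main rule gave 8 genes higher and 19 lower. TMM factors, no minimum of UMIs, single-cell means and leaving out the middle kept both counts within 1.5 times. Where an alternative left fewer than 10 anterior cells in a group, only the posterior was read, which by itself gives more genes: 62 higher and 128 lower with 2 or more Tbx1 UMIs required, 20 and 49 with Epcam at 0, 21 and 56 without cells with epithelial UMIs, 24 and 58 with 20000 or more UMIs, 16 and 61 after thinning, 21 and 54 without Scrublet-marked cells, and 26 higher without cardiomyocyte-marker cells. With both positions kept (added after seeing the data), 30 were lower at 2 or more Tbx1 UMIs, 8 were lower without cardiomyocyte-marker cells and 13 were higher at 20000 or more UMIs; the other counts stayed within 1.5 times. Adding 1 CPM gave 37 and 84, a 1.5-fold rule 27 and 55, leaving out the anterior 21 and 54, and leaving out the posterior 173 and 112. Also chosen after seeing the data, requiring the middle gave 2 and 0, leaving out each gene's top cell gave 10 lower, and the posterior alone at 100 UMIs gave 17 and 54.

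The share of Tbx1-positive cells, 18.9%, became 10.1% at 2 or more Tbx1 UMIs, 23.9% without cells with epithelial UMIs, 12.4% after thinning, 14.6% without the middle and 36.5% without the posterior. Some log2 folds changed direction, and the cause was not tested. Wnt5a was at −0.91 without Scrublet-marked cells, and Acta2 at 0.14 with the middle required. Without cardiomyocyte-marker cells, at the posterior, Actc1 was at 0.44, Myh6 at 0.30, Acta2 at 0.00739, Sh3bgr at 0.12, Fbxl22 at 0.081 and Myl4 at 0.026; with both positions kept Actc1 was at 0.46, Myh6 at 0.15 and Myl4 at 0.21. Of 13 alternatives read at both positions, Gm266 stayed past 2-fold in 13, Smoc1 in 12, Irx3, Msx1 and Msx2 in 11, Rdh10, Phlda2, Col26a1 and Apela in 10, Wnt5a and Tox3 in 9, Cdh11 in 8, Itm2a in 7 and Etv2 in 6. At the posterior, Cxcl12, Cldn11, Cpa1, Foxc2, Meox1 and Barx1 stayed past 2-fold in all 11 alternatives run there, and Prrx1 in 10.

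No paired analysis was possible because each stage is 1 sample and no test was made. The 10 anterior cells of each group, the single Tbx1 UMI of most posterior members and the Scrublet marks on 57.4% of anterior cells limit what these values can show.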
